A study of Macaca mulatta with 24 samples.

Results

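The mesothelial identity genes are *MSLN*, *UPK3B*, *WT1*, *ITLN1*, *LRRN4*, *BNC1*, *CALB2*, *PRG4*, *UPK1B* and *GPM6A*, 10 genes that mark the sheet of cells covering the omentum and the other organs of the abdominal cavity. They were chosen by symbol from general knowledge of this cell type, after the mean of a mesothelial gene list was already known to be low in the *T* + *WSD* group of these data. Of the 10 genes, 8 were matched to 1 row each among the 32386 genes of the counts table, and all 8 were among the 15207 genes that passed the filter on low counts. *LRRN4* and *UPK1B* are not analysed here.

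RNA-seq measured omental white adipose tissue (WAT), a visceral fat depot, from 24 female rhesus macaques in 4 groups of 6, with 1 library per animal. The controls (*C*) carried cholesterol implants and ate monkey chow, the *T* group carried testosterone implants with the same chow, the *WSD* group carried cholesterol implants with a high-fat Western-style diet, and the *T* + *WSD* group carried testosterone implants with that diet. All were young adults, with an age of 4 years in the labels, and were treated for 3 years. The study's methods give a higher age at the biopsy, which they place after the 3 years of treatment. The study's methods describe the 6 animals of a group as representative ones picked from a larger cohort, so the spread within a group is that of the animals picked.

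Mesothelial cells form a single flat layer with microvilli that faces the peritoneal cavity, secretes lubricating fluid and lets organs slide past each other. They arise from mesoderm, but keep epithelial features such as keratins and cell junctions beside mesenchymal ones. The omentum, a fat-bearing fold of peritoneum, has a large mesothelial surface for its mass, so a biopsy of omental fat holds this layer along with adipocytes, vessels, fibroblasts and immune cells.

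The levels of the 8 mesothelial genes were summed as CPM (counts per 1000000 counts of the library, scaled by TMM normalization factors). The summed level ran from 2211 to 38428 CPM in *C* (median 7256) and from 2441 to 17347 in *T* (median 3456). It ran from 685 to 5704 in *WSD* (median 4155) and from 241 to 3046 in *T* + *WSD* (median 934). The *T* + *WSD* animals thus held the lowest range, which overlapped that of every other group. *ITLN1* gave most of these counts, so the genes are described singly below, ordered by where their products act.

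Library depth and 1 animal bear on these values. Total counts ran from 6899185 to 28270776 per library (median 20630512.5). In 8 libraries, 2 in each group, a single gene that is on none of the lists used here took 9.92% to 54.7% of the counts. Its share was 0.879% to 2.51% in the other 16. The 8 libraries are called the library batch below. That name stands for this share of counts only, and no batch was taken from the sample labels. *C* replicate 1, one of the 8, had the highest summed level of the mesothelial genes of all 24 animals and the lowest of the adipocyte, fibroblast, endothelial, smooth muscle, macrophage and T cell lists. Results that move without this animal or without the batch are given both ways for the genes concerned.

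**Figure D1:**
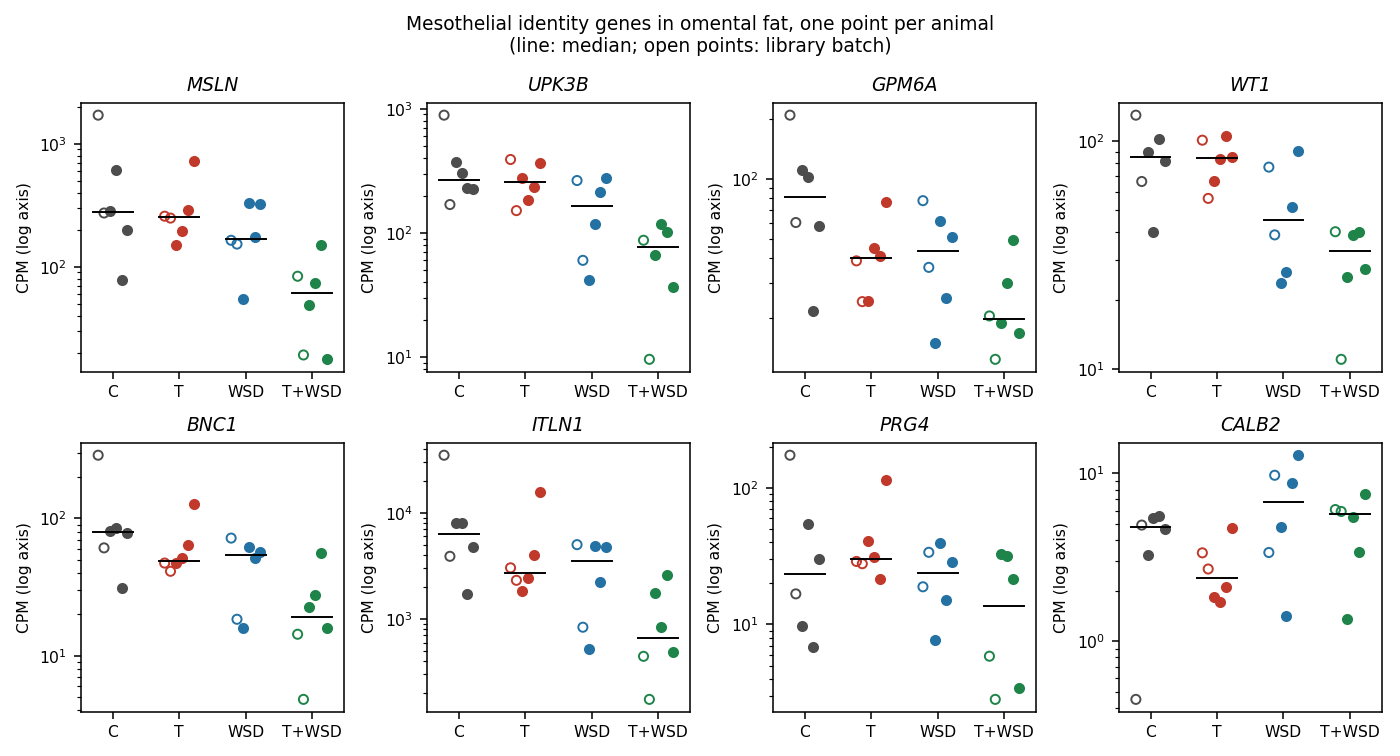
CPM of the 8 mesothelial genes in each of the 24 animals (log axis), by group, with the group median as a line and the 8 libraries of the library batch as open points. In *UPK3B* all 6 *T* + *WSD* animals lie below every control, and in *CALB2* the lowest point of all is *C* replicate 1.

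Of the surface proteins, mesothelin, uroplakin 3B and GPM6A could be followed. *MSLN* (ENSMMUG00000000835) encodes mesothelin, a glycoprotein anchored to the outer membrane of mesothelial cells that binds the mucin CA125. In *C* its level had a lowest value of 78.6, a median of 279 and a highest value of 1709 CPM, and in *T* these were 150, 253 and 719 CPM. In *WSD* they were 54.9, 169 and 332 CPM, and in *T* + *WSD* 17.7, 61.6 and 151 CPM. The *T* + *WSD* animals were low, 4 of the 6 lay below every control, and a 21.7-fold span separated the highest from the lowest control. In *T* + *WSD* against *C* the log2 fold change was -2.99 (SE 0.66, edgeR adjusted p = 0.00650), a 7.95-fold lower level. *MSLN* fell by 2.23 on the log2 scale in *T* + *WSD* against *T* (SE 0.64, edgeR adjusted p = 0.0429), with 5 of 6 animals below every *T* animal.

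*UPK3B* (ENSMMUG00000047349) encodes a membrane protein of the uroplakin family that, unlike its relatives of the bladder lining, is typical of mesothelium. Its level had a lowest value of 169, a median of 265 and a highest value of 887 CPM in *C*, and 151, 256 and 390.0 CPM in *T*. In *WSD* these were 42.0, 165 and 275 CPM, and in *T* + *WSD* 9.61, 76.9 and 119 CPM. It was the only one of the 8 genes in which every *T* + *WSD* animal lay below every control, and the same held against the *T* animals, while the *WSD* range overlapped all others. The log2 fold change of *T* + *WSD* against *C* was -2.36 (SE 0.53, edgeR adjusted p = 0.00685). Against *T* it was -1.92 (SE 0.52, edgeR adjusted p = 0.0343).

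*GPM6A* (ENSMMUG00000007814) encodes a membrane glycoprotein best known from neurons and also used as a mesothelial marker. In *C* its lowest, median and highest levels were 21.7, 81.3 and 210 CPM, and in *T* they were 24.2, 40.0 and 76.6 CPM. In *WSD* they were 14.99, 43.7 and 78.0 CPM, and in *T* + *WSD* 12.4, 19.7 and 49.7 CPM. The *T* and *WSD* animals had about the same median, under that of the controls, with ranges that overlapped the controls, and the *T* + *WSD* animals were low, 4 of them below every control. *T* + *WSD* against *C* gave a log2 fold change of -1.90 (SE 0.46, edgeR adjusted p = 0.0101). *T* against *C* gave -1.17 (SE 0.45, edgeR adjusted p = 0.547), which did not pass the test.

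The transcription factors among the genes are both zinc finger proteins. *WT1* (ENSMMUG00000009881), the Wilms tumour factor, is expressed in the mesothelium from the embryo onwards. Its lowest, median and highest levels were 40.0, 85.5 and 129.96 CPM in *C*, and 56.0, 84.3 and 105 CPM in *T*. In *WSD* they were 23.8, 45.0 and 90.02 CPM, and in *T* + *WSD* 11.02, 33.1 and 40.0 CPM. *WT1* varied least among the controls, by 3.25-fold from lowest to highest, and the *C* and *T* animals had nearly the same median, while every *T* + *WSD* animal lay below every *T* animal and 5 of 6 lay below every control. In *T* + *WSD* it fell by 1.46 on the log2 scale against *C* (SE 0.33, edgeR adjusted p = 0.00705). Against *T* it fell by 1.43 (SE 0.33, edgeR adjusted p = 0.0183).

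*BNC1* (ENSMMUG00000008188) encodes basonuclin 1, known from the proliferating cells of stratified epithelia and from mesothelium. Its lowest, median and highest levels were 31.2, 79.6 and 289 CPM in *C*, and 41.2, 49.3 and 129 CPM in *T*. In *WSD* they were 15.8, 54.0 and 71.9 CPM, and in *T* + *WSD* 4.81, 19.3 and 56.3 CPM. Of the *T* + *WSD* animals, 5 of 6 lay below every control and the sixth lay within their range. The log2 fold change of *T* + *WSD* against *C* was -2.11 (SE 0.53, edgeR adjusted p = 0.0112). Against *T* it was -1.39 (SE 0.52, edgeR adjusted p = 0.0983), which did not pass the test.

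The secreted products were a lectin and a lubricant. *ITLN1* (ENSMMUG00000013391) encodes intelectin-1, also called omentin, a carbohydrate-binding protein released into the blood by visceral fat. Its lowest, median and highest levels were 1736, 6398 and 35030 CPM in *C*, and 1832, 2726 and 15853 CPM in *T*. In *WSD* they were 521, 3490 and 5027 CPM, and in *T* + *WSD* 175, 665 and 2621 CPM. The group ranges overlapped, with 1 control and 1 *T* animal far above the rest of their groups, and 4 of the 6 *T* + *WSD* animals lay below every control. *T* + *WSD* against *C* had the largest change of the 8 genes, a log2 fold change of -3.28 (SE 0.81, edgeR adjusted p = 0.0109) or a 9.69-fold lower level. Against *T* the log2 fold change was -2.21 (SE 0.78, edgeR adjusted p = 0.0810), which did not pass the test. Some reads of *ITLN1* may be shared with its relative *ITLN2*, and those of *UPK3B* with its *UPK3BL* copies. How such reads were counted is not given in the sources used here.

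*PRG4* (ENSMMUG00000009076) encodes lubricin, the proteoglycan that coats joint and serosal surfaces. Its lowest, median and highest levels were 6.89, 23.5 and 173 CPM in *C*, and 21.6, 30.0 and 114 CPM in *T*. In *WSD* they were 7.70, 23.8 and 39.7 CPM, and in *T* + *WSD* 2.83, 13.7 and 32.7 CPM. The controls spanned 25.2-fold, the widest range of any group in the 8 genes, and the *T* + *WSD* animals fell apart into 3 below every control and 3 among them. The log2 fold change of *T* + *WSD* against *C*, -1.53 (SE 0.71, edgeR adjusted p = 0.141), did not pass the test. Without *C* replicate 1 it was -0.47 (edgeR adjusted p = 0.685).

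*CALB2* (ENSMMUG00000008403) encodes calretinin, a cytoplasmic calcium-binding protein that pathologists stain to identify mesothelial cells, and which neurons also make. Its level was low throughout, with a lowest value of 0.450, a median of 4.79 and a highest value of 5.57 CPM in *C* and 1.71, 2.40 and 4.75 CPM in *T*. In *WSD* these were 1.42, 6.76 and 12.8 CPM, and in *T* + *WSD* 1.36, 5.73 and 7.53 CPM. It ran apart from the other 7 genes: the *T* + *WSD* animals were not low, and all 4 groups overlapped. The log2 fold change of *T* + *WSD* against *C* was 0.28 (SE 0.50, 95% confidence interval -0.75 to 1.32, edgeR adjusted p = 0.750), an interval that leaves room for a change in either direction.

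The comparison of the combined treatment with controls asked how testosterone and diet together relate to these genes. Of the 8 mesothelial genes, 6 were differentially expressed genes (DEGs, with a change of over 1.5-fold and an edgeR adjusted p under 0.05) in *T* + *WSD* against *C*, all with lower levels. In this comparison 10% of all tested genes were DEGs. The median log2 fold change of the 8 genes was -2.01, beside -0.04 over all tested genes. A low mesothelial mean in *T* + *WSD* was known when the genes were chosen, so this count is a description. DESeq2 also called 6. In bulk tissue, fewer mesothelial cells and less of each RNA per mesothelial cell cannot be told apart. Of the 8 genes, 1 had every *T* + *WSD* animal below every control, where 4.12% of all tested genes did so.

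Without *C* replicate 1 the same 6 genes passed, with smaller changes. *MSLN* then had a log2 fold change of -2.12, *UPK3B* -1.86, *WT1* -1.28, *ITLN1* -2.31, *BNC1* -1.46 and *GPM6A* -1.48, with edgeR adjusted p values from 0.0231 for *WT1* to 0.0483 for *BNC1*. Without the 8 libraries of the batch, which left 4 animals in each group, 0 of the 8 genes passed (78 of 15448 tested genes were DEGs). Their log2 fold changes were then -1.99 for *MSLN* (edgeR adjusted p = 0.154), -1.78 for *UPK3B* (0.0747), -1.23 for *WT1* (0.0965), -1.96 for *ITLN1* (0.182), -1.15 for *BNC1* (0.187) and -1.32 for *GPM6A* (0.179). The levels were thus lower in *T* + *WSD* also among these 16 libraries, but not beyond the threshold.

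Within each set of libraries, the difference of mean log2 CPM between *T* + *WSD* and *C* was taken separately. *MSLN* differed by -4.09 in the batch and by -2.03 in the other 16 libraries. The other 5 genes that passed ranged from -2.14 (*WT1*) to -5.39 (*ITLN1*) in the batch and from -1.19 (*WT1*) to -2.03 (*ITLN1*) outside it. Direction was the same on both sides for these 6 genes, and the size was smaller among the 16 libraries, which do not include *C* replicate 1. *PRG4* differed by -3.69 in the batch and by -0.13 outside it, and *CALB2* by 1.88 and -0.30.

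**Figure D2:**
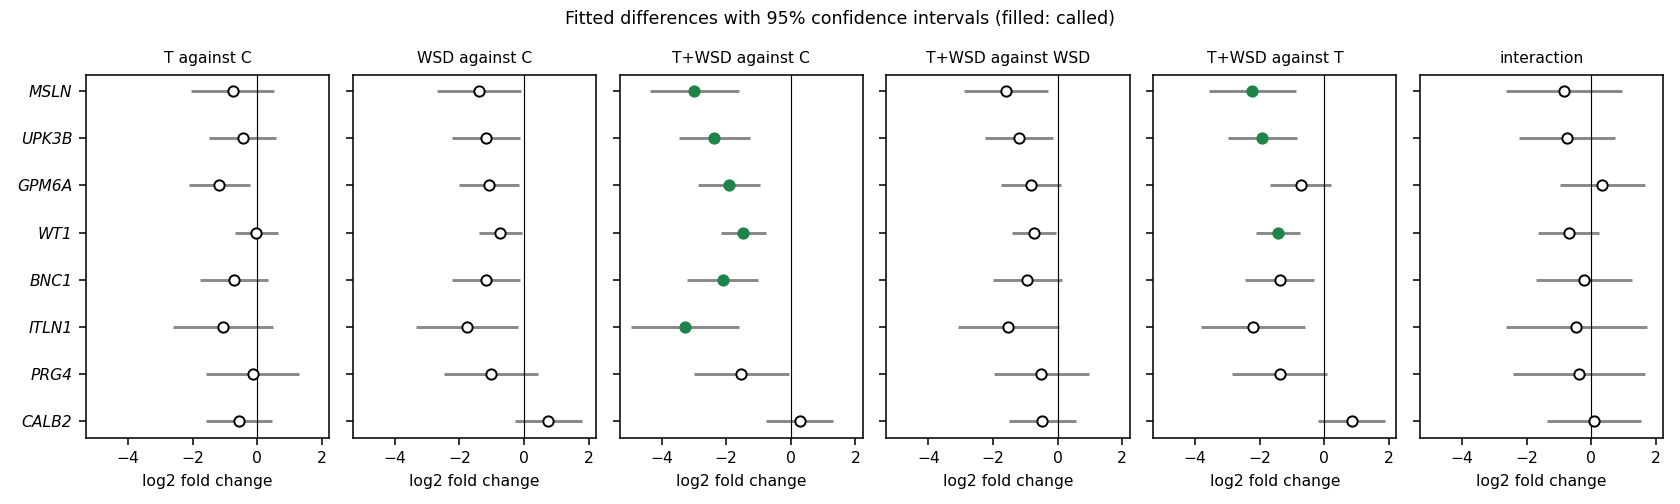
Log2 fold changes of the 8 mesothelial genes (horizontal axis) with 95% confidence intervals from edgeR in 6 comparisons, DEGs as filled points. The 6 DEGs of *T* + *WSD* against *C* and the 3 of *T* + *WSD* against *T* lie left of 0, while the other comparisons hold 0 DEGs.

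Diet alone and testosterone alone were each compared with the same 6 controls, which they share with the combined group. In *WSD* against *C* 0 of the 8 genes were DEGs by edgeR, as were 0% of all tested genes. By DESeq2 there were also 0, beside 237 of 25131 genes with counts. At an unadjusted p under 0.05 there were 6. The share of all tested genes at that threshold was not counted, so the 6 have no background to be set against. The log2 fold changes ran from -1.75 in *ITLN1* (SE 0.76, edgeR adjusted p = 0.227) to 0.75 in *CALB2* (SE 0.50, edgeR adjusted p = 0.418), with a median of -1.12 beside -0.02 over all tested genes. For *MSLN* the 95% confidence interval was -2.69 to -0.09, and for *UPK3B* -2.22 to -0.11. Both intervals exclude 0, while the adjusted p values (0.240 and 0.228) miss the threshold. Without *C* replicate 1 the log2 fold changes were -0.53 for *MSLN* (edgeR adjusted p = 0.730), -0.68 for *UPK3B*, -0.57 for *WT1*, -0.81 for *ITLN1*, -0.54 for *BNC1*, -0.67 for *GPM6A* and 0.011 for *PRG4*. The estimates for diet alone were thus smaller in these genes when this animal was left out. Within the library batch *MSLN* differed by -2.11 in mean log2 CPM, and outside it by -0.35. In the same order *UPK3B* differed by -1.62 and -1.08, *WT1* by -0.77 and -0.84 and *ITLN1* by -2.51 and -1.08. *BNC1* differed by -1.86 and -0.63, *GPM6A* by -1.09 and -0.89, *PRG4* by -1.09 and 0.06 and *CALB2* by 1.82 and 0.19.

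In *T* against *C* 0 of the 8 genes were DEGs by edgeR, again with 0% of all tested genes. By DESeq2 there were also 0, beside 7 of 25131 genes with counts. At an unadjusted p under 0.05 there was 1, *GPM6A*, again with no share of all tested genes counted. The log2 fold changes ran from -1.17 in *GPM6A* to -0.03 in *WT1* (SE 0.32, 95% confidence interval -0.70 to 0.63), with a median of -0.64. All 8 estimates lay below 0, and without *C* replicate 1 those of *MSLN* (0.09), *UPK3B* (0.05), *WT1* (0.13) and *PRG4* (0.90) lay above it. Within the library batch *MSLN* differed by -1.43 in mean log2 CPM, and outside it by 0.29. In the same order *UPK3B* differed by -0.67 and -0.10, *WT1* by -0.31 and 0.19 and *ITLN1* by -2.14 and -0.24. *BNC1* differed by -1.59 and 0.06, *GPM6A* by -1.87 and -0.51, *PRG4* by -0.92 and 1.20 and *CALB2* by 0.90 and -0.94. For testosterone alone the direction thus turned in 4 of the genes when 1 control animal was left out.

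Adding testosterone to the diet was read from *T* + *WSD* against *WSD*. Of the 8 genes, 0 were DEGs by edgeR, where 0.815% of all tested genes were. By DESeq2 there were also 0, beside 429 of 25131 genes with counts. At an unadjusted p under 0.05 there were 3, with no share of all tested genes counted at that threshold. The log2 fold changes ran from -1.60 in *MSLN* (SE 0.63, 95% confidence interval -2.91 to -0.29, edgeR adjusted p = 0.155) to -0.47 in *CALB2*, with a median of -0.88. All 8 estimates lay below 0. In mean log2 CPM, *MSLN* differed by -1.98 in the library batch and by -1.68 outside it. In the same order *UPK3B* differed by -2.11 and -0.82, *WT1* by -1.37 and -0.36 and *ITLN1* by -2.88 and -0.95. *BNC1* differed by -2.12 and -0.59, *GPM6A* by -1.72 and -0.33, *PRG4* by -2.60 and -0.19 and *CALB2* by 0.06 and -0.49. The difference was thus smaller outside the batch in all of these genes but *CALB2*, and least so in *MSLN*.

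Adding the diet to testosterone was read from *T* + *WSD* against *T*. Of the 8 genes, 3 were DEGs with lower levels, *MSLN*, *UPK3B* and *WT1*, where 3.77% of all tested genes were DEGs, and DESeq2 also called 3. Every *T* + *WSD* animal lay below every *T* animal in 2 of the 8 genes, *UPK3B* and *WT1*, beside 3.1% of all tested genes. The median log2 fold change of the 8 genes was -1.41, beside -0.03 over all tested genes. This comparison shares its *T* + *WSD* animals with that against *C*, so it is no separate evidence of a low level in them. *WT1* kept its call when any 1 animal was left out, with an edgeR adjusted p of at most 0.0408, but not without the 8 libraries of the batch (log2 fold change -1.36, edgeR adjusted p = 0.0584). *MSLN* and *UPK3B* lost theirs without *T* replicate 18 (edgeR adjusted p = 0.0998 and 0.0631), and likewise without *T* replicates 13 or 17 or *T* + *WSD* replicates 7, 8, 9 or 12. *MSLN* also lost its call without *T* replicate 16 or *T* + *WSD* replicate 10, and *UPK3B* without *T* replicate 15.

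The interaction asks whether the effect of both treatments differs from the sum of the single ones. It held 0 DEGs among the 8 genes by edgeR, where 0.243% of all tested genes were DEGs, with 0 at an unadjusted p under 0.05. By DESeq2 there were also 0, beside 166 of 25131 genes with counts. The estimates ran from -0.84 in *MSLN* (SE 0.87, 95% confidence interval -2.64 to 0.97) to 0.34 in *GPM6A* (SE 0.64, 95% confidence interval -0.97 to 1.66), with edgeR adjusted p values from 0.540 to 0.984. Leaving out *C* replicate 1 gave estimates of -1.68 for *MSLN*, -1.22 for *UPK3B*, -1.39 for *ITLN1*, -0.82 for *BNC1*, -1.38 for *PRG4* and -0.044 for *GPM6A*, with 0 DEGs among the 8 genes as before. The intervals with all animals leave room for a departure from additivity of more than 1 log2 unit in either direction for *ITLN1*, *BNC1*, *PRG4* and *CALB2*, towards lower levels for *MSLN*, *UPK3B* and *WT1*, and towards higher levels for *GPM6A*.

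The order of the mean levels was *C*, *T*, *WSD* and *T* + *WSD*, from high to low, in 6 of the 8 genes. By the medians this order held only in *MSLN*, *UPK3B* and *WT1*. The *WSD* median lay above the *T* median in *ITLN1* (3490 and 2726 CPM) and in *BNC1* (54.0 and 49.3 CPM). In *PRG4* the *T* median (30.0 CPM) lay above that of *C* (23.5 CPM). In *WT1* the means were 84.9 ± 30.7, 83.0 ± 18.97, 51.2 ± 27.1 and 30.4 ± 11.48 CPM (SD, n = 6 each). In *UPK3B* they were 364 ± 266, 267 ± 96.5, 162 ± 102 and 70.3 ± 41.3 CPM. The neighbours *C* and *T*, and *WSD* and *T* + *WSD*, did not pass the adjusted threshold in any of the 8 genes, although the 95% confidence interval excluded 0 for *GPM6A* in the first pair and for *MSLN*, *UPK3B* and *WT1* in the second. The neighbours *T* and *WSD* were not tested, and their ranges overlapped in each gene. *GPM6A* had its *WSD* mean (44.6 ± 23.6 CPM) above its *T* mean (41.7 ± 19.2 CPM). *CALB2* had its highest mean in *WSD* (6.82 ± 4.33 CPM) and its lowest in *T* (2.74 ± 1.16 CPM).

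The genes also varied together between animals of the same group. After the group mean of each gene was subtracted from its log2 CPM, the 21 pairs of genes without *CALB2* had Pearson correlations over the 24 animals from 0.23 to 0.95 (median 0.76). The highest was that of *ITLN1* with *BNC1*. The 7 pairs with *CALB2* ran from -0.45 to -0.02 (median -0.38). With the mean of the other 7 genes, *BNC1* had a correlation of 0.91, *ITLN1* 0.88, *UPK3B* 0.85, *MSLN* 0.84, *GPM6A* 0.82, *PRG4* 0.67, *WT1* 0.56 and *CALB2* -0.39. *WT1* and *PRG4* thus followed the others less closely, and *CALB2* did not follow them. *WT1* had correlations of only 0.23 with *PRG4*, 0.38 with *MSLN* and 0.42 with *GPM6A*. The label of mesothelial genes thus covers 7 genes with positive correlations of differing strength, and 1 that ran apart. Without *C* replicate 1 the value for *CALB2* was -0.17, while *BNC1* had 0.88 and *WT1* 0.52. All values of an animal come from 1 library, so they share its depth and normalization.

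The same animals stood at the ends for several genes. *C* replicate 1 was the highest control in 7 of the 8 genes and the lowest in *CALB2*. *C* replicate 5 was the lowest control in 5 genes, with 78.6 CPM of *MSLN* beside 1709 in *C* replicate 1, and yet had 102 CPM of *WT1* beside 129.96 in that animal. *T* replicate 18 was the highest *T* animal in 6 genes, *CALB2* included. *WSD* replicate 21 was the lowest *WSD* animal in 7 genes, all but *CALB2*. *T* + *WSD* replicate 8, the shallowest library, was the lowest of its group in 6 genes, and *T* + *WSD* replicate 11 the highest in 4. Some animals were thus high or low in several mesothelial genes at once. Others were mixed, such as *T* replicate 13 and *T* + *WSD* replicates 7 and 9, each above its group mean in 4 of the 8 genes.

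**Figure D3:**
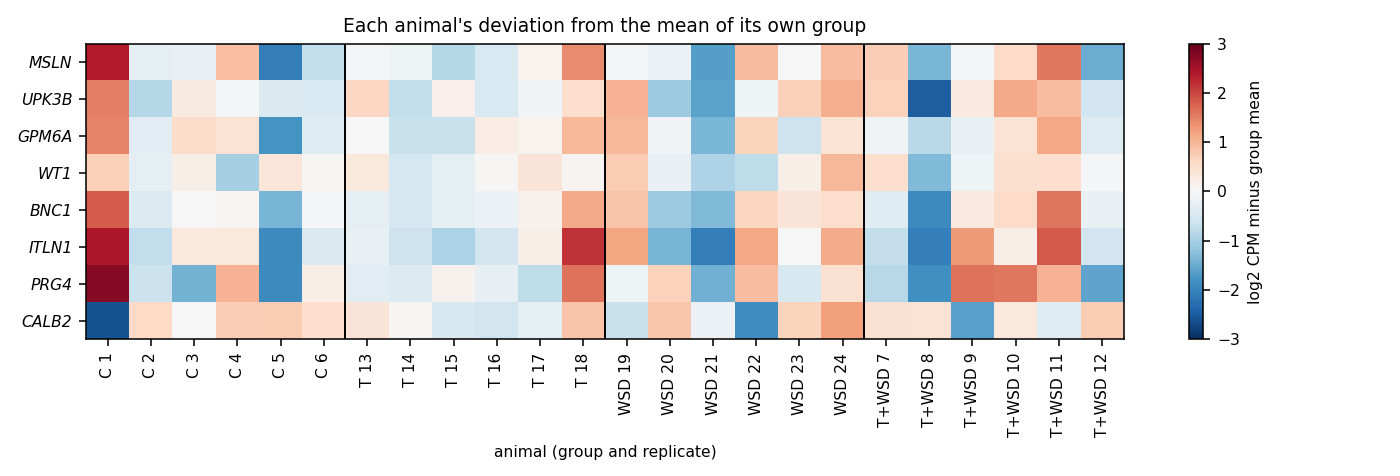
Deviation of each animal's log2 CPM from the mean of its own group (colour, red above and blue below) for the 8 mesothelial genes (rows) in the 24 animals (columns, group and replicate). Some columns share a colour, such as *C* replicate 1 in red in all rows but that of *CALB2*, and *WSD* replicate 21 in blue, while others are mixed.

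Genes whose pattern within groups was most like that of the 8 were sought among all tested genes with a symbol. The 8 with the highest correlation to their scaled mean over the 24 animals were *BAIAP2L1* (0.94), *KLK11* (0.91), *DPP4* (0.91), *PPP4R4* (0.91), *CXADR* (0.90), *BICDL1* (0.89), *EPCIP* (0.89) and *HPD* (0.89). Without *C* replicate 1 the values ran from 0.87 to 0.93. *BAIAP2L1*, an adaptor between the plasma membrane and actin, had mean levels in the order *C*, *T*, *WSD* and *T* + *WSD* of 12.3 ± 8.30, 7.41 ± 4.37, 6.38 ± 2.90 and 2.46 ± 1.87 CPM (SD, 6 animals each). *DPP4*, a cell-surface peptidase that also marks fibroblast progenitors, had mean levels of 127 ± 143, 65.7 ± 38.8, 50.8 ± 25.2 and 25.5 ± 17.3 CPM in the same order. Of these 8 genes, 7 were DEGs with lower levels in *T* + *WSD* against *C*, where 10% of all tested genes were DEGs. *PPP4R4* (log2 fold change -1.89, SE 0.67, edgeR adjusted p = 0.0535) was the exception. The 8 were picked in these same data for following genes already known to be low in *T* + *WSD*, so this count is a description. *KLK11* and *CXADR* are also on the wider list described next.

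A wider list of 36 other mesothelial genes held keratins, junction proteins, secreted factors and transcription factors, of which 32 were matched to the table and 28 were tested. In *T* + *WSD* against *C* 21 of the 28 were DEGs, all with lower levels, 7 did not pass the test, and the median log2 fold change was -1.85, beside 10% of all tested genes that were DEGs. DESeq2 called 22. All 28 estimates lay below 0, and in 14 of the 28 every *T* + *WSD* animal lay below every control, beside 4.12% of all tested genes. Part of this list, such as *VSTM2L* and *KRT18*, was already known to be low in the combined group, so the count is a description as well. It was 17 without *C* replicate 1, and without the library batch 0.

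The simple keratins, the intermediate filaments of single-layered epithelia, were among the strongest. *KRT18* had a lowest value of 41.4, a median of 69.7 and a highest value of 233 CPM in *C*, against 1.13, 11.6 and 26.9 in *T* + *WSD*. The groups did not overlap, and the log2 fold change was -3.15 (SE 0.60, edgeR adjusted p = 0.00322). Its partner *KRT8* changed by -2.76 (SE 0.58, edgeR adjusted p = 0.00509), and *KRT19* by -2.66 (SE 0.50, edgeR adjusted p = 0.00322). Keratin genes have many processed copies in primate genomes, and reads could be split between them. *KRT7*, at 0.821 to 4.04 CPM in *C* and 0 to 1.01 in *T* + *WSD*, had a log2 fold change of -2.62 (SE 0.96, edgeR adjusted p = 0.0626).

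*KLK11*, a secreted serine protease, changed by -2.92 on the log2 scale (SE 0.51, edgeR adjusted p = 0.00294). *CXADR*, an adhesion receptor of cell junctions, changed by -2.45 (SE 0.45, edgeR adjusted p = 0.00295), from a median of 42.5 CPM in *C* to 9.48 in *T* + *WSD*. Both had every *T* + *WSD* animal below every control. *PLA2G2A*, a secreted phospholipase, changed by -2.57 (SE 0.84, edgeR adjusted p = 0.0386) and *PRR15* by -2.57 (SE 0.60, edgeR adjusted p = 0.00843), with overlapping groups. *VSTM2L* changed by -3.74 (SE 0.91, edgeR adjusted p = 0.0102), at 0 to 7 counts per library in *T* + *WSD* and 12 to 132 in *C*, so that the size of its change depends on the prior count. The 7 genes of the list that did not pass were *KRT7*, *THBD*, *MUC1*, *HAS1*, *CLDN15*, *SBSPON* and *TBX18*, of which *CLDN15* missed only the fold change (log2 fold change -0.32, SE 0.10, edgeR adjusted p = 0.0281).

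**Figure D4:**
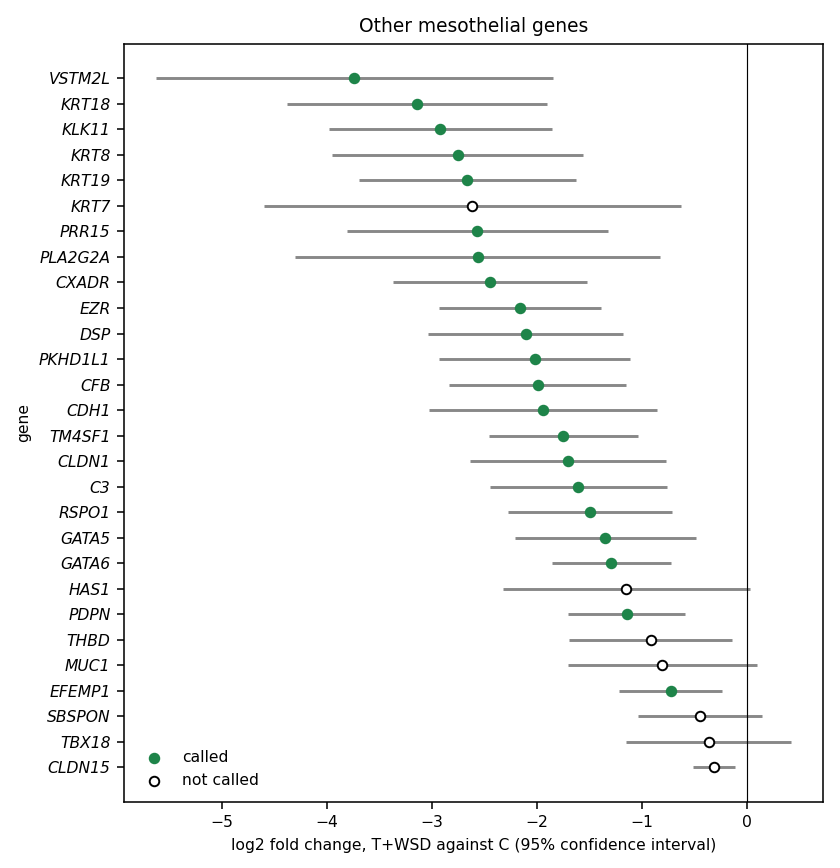
Log2 fold changes of *T* + *WSD* against *C* (horizontal axis) with 95% confidence intervals from edgeR for the 28 other mesothelial genes that were tested, ordered by size, DEGs as filled points. All 28 points lie left of 0, from *VSTM2L* (-3.74) to *CLDN15* (-0.32), and 21 are DEGs.

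In the other comparisons the wider list gave fewer calls. In *WSD* against *C* and in *T* against *C* 0 of the 28 genes were DEGs by edgeR, as were 0% of all tested genes. DESeq2 called 1 and 0 of the list, beside 237 and 7 of 25131 genes with counts. At an unadjusted p under 0.05 there were 14 and 3, with no share of all tested genes counted at that threshold. In *T* + *WSD* against *WSD*, where 0.815% of all tested genes were DEGs, 1 of the 28 was, *EZR*, the linker of microvilli to actin, with a log2 fold change of -1.50 (SE 0.36, edgeR adjusted p = 0.0370). The count was 9 by DESeq2, 10 without *WSD* replicate 21, and 0 without any other *WSD* animal or any *T* + *WSD* animal. In *T* + *WSD* against *T*, where 3.77% of all tested genes were DEGs, 10 of the 28 were, all with lower levels, led by *KRT7* (-3.93, SE 0.98, edgeR adjusted p = 0.0250), *KRT19* (-2.45, SE 0.49, edgeR adjusted p = 0.00957), *KLK11* (-2.38, SE 0.50, edgeR adjusted p = 0.0133) and *KRT8* (-2.33, SE 0.57, edgeR adjusted p = 0.0226). It was 5 without *T* + *WSD* replicates 8 or 10, 6 without *T* + *WSD* replicate 9 or *T* replicate 13, and 1 without the library batch. The interaction held 0, where 0.243% of all tested genes were DEGs, and 1 by DESeq2, beside 166 of 25131 genes with counts. At an unadjusted p under 0.05 it held 4, again with no share of all tested genes counted.

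Markers of the other cells of the biopsy were followed beside these genes, and their counts of DEGs stand against 10% of all tested genes in *T* + *WSD* against *C*. The summed level of 11 adipocyte genes, which include the hormone *ADIPOQ* and the lipid droplet coat *PLIN1*, ran from 3631 to 24768 CPM among controls, 14000 to 32442 with testosterone, 16169 to 36417 with the diet and 21683 to 33312 with both. Of the 11, 2 were higher in *T* + *WSD* against *C*, *LEP* (log2 fold change 2.21, SE 0.74, edgeR adjusted p = 0.0442) and *FABP4* (0.82, SE 0.28, edgeR adjusted p = 0.0429). The summed level of 12 endothelial genes ran from 1085 to 1851 CPM among controls, 1386 to 2253 with testosterone, 1588 to 2430 with the diet and 2019 to 3089 with both, so that *C* and *T* + *WSD* did not overlap. Of these 12, 5 were higher in *T* + *WSD* against *C*, among them *PECAM1* (0.88, SE 0.16, edgeR adjusted p = 0.00294) and *VWF* (0.97, SE 0.22, edgeR adjusted p = 0.00740). The summed level of 10 smooth muscle and pericyte genes ran from 824 to 2012 CPM among controls, 1377 to 1488 with testosterone, 1170 to 2016 with the diet and 1924 to 2705 with both, and 4 of the 10 were higher in *T* + *WSD* against *C*. Estimates of *T* + *WSD* against *C* were positive in 9 of the 12 endothelial genes and negative in 3. Of the 10 smooth muscle and pericyte genes, 7 were positive and 3 negative. Mean *ACTA2* was 232 CPM with testosterone alone and 222 with both, beside 130 among controls. Mean *MYH11* was 209 CPM with testosterone alone and 175 with both, beside 138 among controls. Mesothelial levels were thus low in the group where both summed vascular levels had their highest median, though not every vascular marker did. The part of these markers in the mesothelial result was not tested.

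The neural and Schwann cell list was also high in the combined group. Its 8 matched genes summed to 37.6 to 76.4 CPM among controls, 32.3 to 78.2 with testosterone, 27.6 to 81.4 with the diet and 82.7 to 140.5 with both, so that *T* + *WSD* lay above every other group. Of its 6 tested genes 1 was higher in *T* + *WSD* against *C*, *UCHL1* (log2 fold change 1.83, SE 0.33, edgeR adjusted p = 0.00300), and the part of this list in the mesothelial result was not tested. Of 12 fibroblast and preadipocyte genes 1 was higher (*DPT*) and 1 lower (*DPP4*, log2 fold change -2.30, SE 0.59, edgeR adjusted p = 0.0124) in *T* + *WSD* against *C*, with summed levels of 9230 to 29053 CPM among controls, 11659 to 25541 with testosterone, 10655 to 24461 with the diet and 9533 to 19381 with both. Of 10 macrophage genes 1 was higher (*ITGAX*), with summed levels of 199 to 1242 CPM among controls, 331 to 1293 with testosterone, 480 to 1094 with the diet and 558 to 1118 with both. Of 8 T and NK cell genes and 6 tested B and plasma cell genes 0 were DEGs by edgeR, with 0 and 1 at an unadjusted p under 0.05 and 0 and 1 by DESeq2.

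Other epithelia, which share keratins and uroplakins with mesothelium, were close to absent. The 11 matched genes of their list summed to 2.48 to 4.96 CPM among controls, 1.85 to 5.30 with testosterone, 1.49 to 4.41 with the diet and 1.98 to 3.37 with both. *EPCAM*, which most epithelia but not mesothelium make, was at no more than 0.731 CPM in any library, *PAX8* at no more than 2.51 CPM, and *KRT20* was at 0 in every library. Of the list's 4 tested genes 0 were DEGs in *T* + *WSD* against *C* by edgeR, with 1 at an unadjusted p under 0.05 and 1 by DESeq2.

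**Figure D5:**
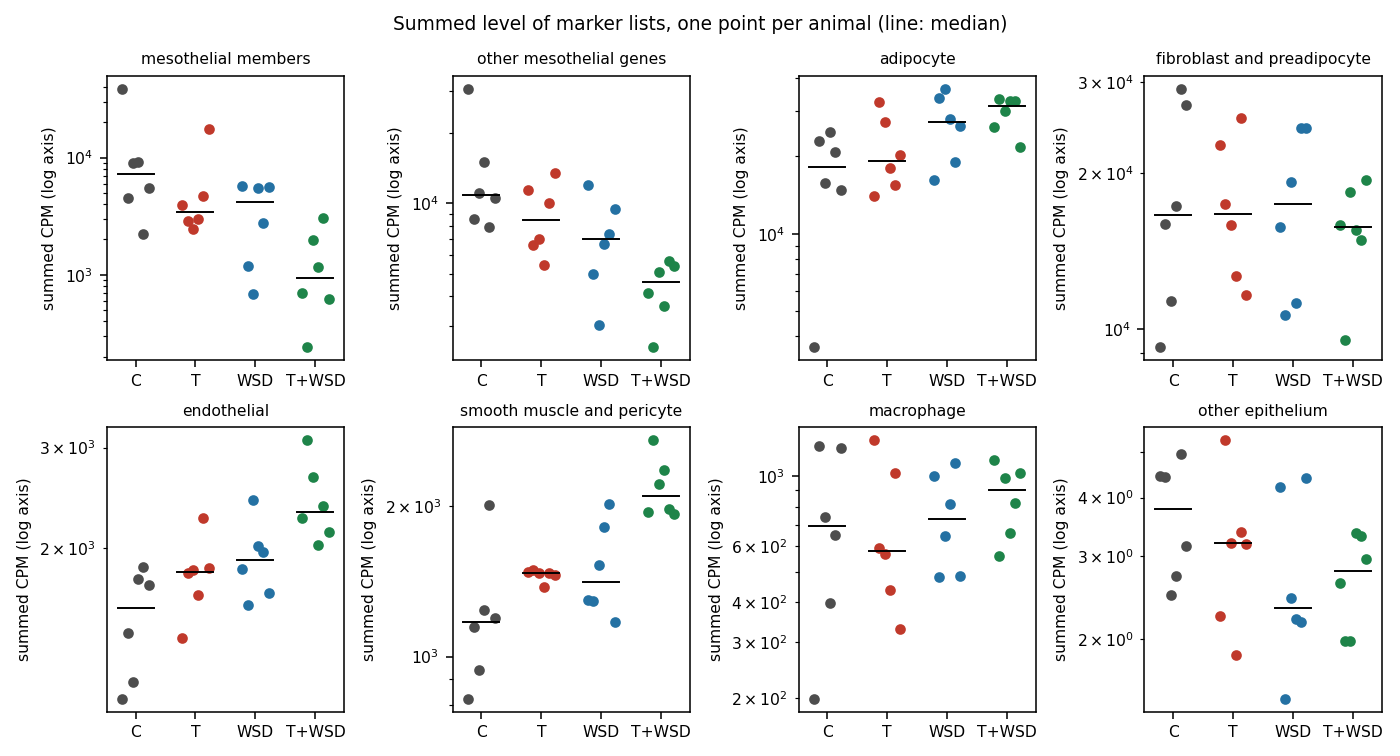
Summed CPM (log axis) of the genes of 8 marker lists in each of the 24 animals, by group, with the group median as a line. The 2 mesothelial lists have their lowest medians in *T* + *WSD*, the endothelial and smooth muscle lists their highest, and *C* replicate 1 is the leftmost control in each panel.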

How the data were processed

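Libraries depleted of ribosomal RNA were sequenced by the authors, who, per the labels and the paper's methods, trimmed the reads with Trimmomatic 0.36, aligned them to rheMac8 with STAR 2.5.2b and deposited unnormalized counts of reads on each gene in 1 column per animal. The counting tool and its strand setting are not given in the sources used here. Groups came from the sample labels. Gene symbols came from a gene name table or, where it had none, from identifiers in the supplementary tables. *FABP4* and *CLDN15* matched 2 identifiers each, and only the one with the most counts was used. The 10 genes and all lists were chosen with earlier results of these data known. No gene positions, lengths or sequences were used.

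Counts were tested with edgeR 4.0.16 in R 4.3.3 (TMM, filterByExpr at min.count 10 and min.total.count 15, quasi-likelihood F-test, robust and legacy both TRUE) in a joint fit of 4 group means, with two-sided p values adjusted by Benjamini-Hochberg over the 15207 tested genes. DEGs had to pass an adjusted p of 0.05 and change by over 1.5-fold. Numbers of genes at an unadjusted p under 0.05 are given without the share of all tested genes, which was not counted at that threshold. Log2 CPM used a prior count of 2. The fit was tested on simulated data. No 2 libraries of a group were identical. Named were the 10 genes, the 8 DEGs of the wider list with the largest change in *T* + *WSD* against *C* and up to 4 in each other comparison, the 8 genes of most similar pattern, and the first 2 genes and summed level of each other list. Other marker genes were named after their values were seen. Alternatives were DESeq2 1.42.0, other normalizations, filters and fit settings, the library batch (libraries with over 5% of counts on a single gene) as a covariate or left out, and each animal left out in turn.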

Additional observations from a re-analysis of the deposited data

Results flagged for a closer look

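In each gene and group of 6 animals, the highest and lowest animal's gap to its nearest neighbour was divided by the range of the group and set against Dixon's 95% limit for groups of 6. Of 32 such groups 3 held an animal past the limit, where chance flags about 1 in 20 groups. *T* + *WSD* replicate 8, the library with the lowest total count and 54.7% of its counts on a single gene, was low in *WT1*, with 11.02 CPM. *T* replicate 18, from the deepest library, was high in *ITLN1*, with 15853 CPM. *C* replicate 1 was low in *CALB2*, with 0.450 CPM, while it was the highest control in the other 7 genes.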

How the results depend on the processing

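In *T* + *WSD* against *C* 6 of the 8 genes were DEGs, and the number stayed at 6 whichever animal was left out, but was 0 without the library batch. In *T* + *WSD* against *T* it was 3, with 1 to 4 when 1 animal was left out, 1 with no filter on low counts and 0 without the library batch. With the filter left out more genes are tested, and without the batch fewer animals. In the other comparisons it stayed at 0 throughout. With the batch as a covariate no count of these genes changed. No paired analysis was possible because the groups share no replicate numbers. Without the library batch the log2 fold change turned to -0.074 for *CALB2* in *T* + *WSD* against *C*, and in *T* against *C* to 0.21 for *MSLN*, 0.13 for *WT1*, 0.10 for *ITLN1*, 0.086 for *BNC1* and 1.04 for *PRG4*. With 1 animal left out, *T* against *C* ran from -1.20 to 0.091 for *MSLN*, -0.59 to 0.046 for *UPK3B*, -0.18 to 0.13 for *WT1* and -0.70 to 0.90 for *PRG4*, and *WSD* against *C* from -1.26 to 0.011 for *PRG4*. The interaction ran from -1.39 to 0.39 for *ITLN1*, -0.82 to 0.12 for *BNC1*, -0.13 to 0.38 for *CALB2*, -1.38 to 0.19 for *PRG4* and -0.044 to 0.61 for *GPM6A*. The cause of these turns was not tested. Over all tested genes the DEGs of *T* + *WSD* against *C* numbered 900 without *C* replicate 1, 78 without the batch and 2603 with no fold-change threshold. *T* + *WSD* against *WSD* had 429 by DESeq2 and 9 to 448 with 1 animal left out, *T* + *WSD* against *T* 1087 and 238 to 828, *WSD* against *C* 237 and 0 to 59, and the interaction 166 and 11 to 96. *CALB2*, at no more than 309 counts in any library, had the shallowest counts of the 8 genes.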
